A study of Macaca mulatta with 9 samples.

Results

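Ovaries of old rhesus monkeys were compared with ovaries of young ones, using the 3 arrays labelled as old and the 3 labelled as young among the 9 arrays of the series. All 14132 genes that the array annotation names were examined, each through the probe set with the highest mean intensity. The young monkeys (replicates young 1 to 3) were 3 to 4 years old and had estrous cycles but had never bred, whereas the old monkeys (old 1 to 3) were 18 to 19 years old and had lost their reproductive capacity. The other 3 arrays, of middle-aged monkeys of 7 to 8 years with good fertility, entered the fit to estimate the spread between monkeys. Each array held RNA from part of 1 ovary of 1 monkey, all ovaries were collected in October after perfusion, and young and middle-aged ovaries were taken at about the proestrus stage. Stage of cycle was not given for the old monkeys, so age, cycle and breeding history cannot be told apart here.

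The primate ovary holds a store of oocytes laid down before birth, each enclosed in a follicle of granulosa cells. Growing oocytes build the zona pellucida, a glycoprotein coat, and store maternal RNAs and proteins that the embryo uses before its own genome is active. Granulosa cells of growing follicles divide and make estrogen and anti-Müllerian hormone, theca cells supply androgens, and the corpus luteum makes progesterone. The store of follicles shrinks with age, while stroma and vessels make up the rest of the organ. In another part of these ovaries the study counted significantly fewer follicles with age, and very few in the old group. RNA of whole tissue was measured, so fewer cells of a type and less RNA per cell cannot be told apart from the RNA readings given here.

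Intensities were on a linear scale from 3.14 to 26458, with array medians between 24.2 and 25.8. No detection calls were at hand, and the first quartiles of the arrays, 9.0 to 9.57, serve here as a guide to dim signals. ACTB, the cytoskeletal actin often used as a reference, read 10352, 9540 and 9226 in young 1, 2 and 3 and 10972, 8443 and 9067 in old 1, 2 and 3 (log2 difference -0.04, adjusted p = 0.92 from limma). The log2 difference between probe sets at the 3' and 5' ends overlapped between the groups for ACTB and GAPDH, but for EF1A it was 0.85, 0.90 and 0.85 in the young and 1.64, 1.48 and 1.38 in the old arrays. Spiked bacterial RNAs, as log2 deviations from their mean over the arrays, stood at 0.67 on young 3 and 0.78 on old 3, against -0.42 to 0.03 elsewhere. The part of these readings in the results below was not tested. HBB, the beta-globin of red blood cells, read 320, 565 and 307 in young and 1339, 977 and 2736 in old ovaries (SE of the log2 difference 0.42, adjusted p = 0.118 from limma).

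Most genes read much alike in old and young ovaries, and the large differences were mainly losses. On the log2 scale, 81.6% of genes lay within 1.5-fold and the median difference of old minus young was -0.00. A call required an adjusted p below 0.05 from limma, by Benjamini-Hochberg over all probe sets, together with a fold of at least 1.5. Of 52766 probe sets, 14 were higher (0.0265%) and 68 lower (0.129%) in old ovaries. Counted as genes, 4 of 14132 rose (0.0283%) and 37 fell (0.262%), and at an unadjusted p under 0.05 there were 963 higher and 1692 lower. A looser count takes the genes whose 3 old arrays lay all above, or all below, the 3 young arrays: 1099 were higher (7.78%) and 1949 lower (13.8%). Among these, 38 were at least 2 higher on the log2 scale and 151 at least 2 lower, and 2 were at least 4 higher against 14 at least 4 lower. Counts for the gene lists below are to be read against these numbers for all 14132 genes. A listed gene is called measured where the annotation gave a probe set its symbol alone. Other listed genes may still have unnamed probe sets on the array. With 3 arrays against 3, an exact permutation test of a single gene cannot fall below p = 0.1.

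**Figure D1:**
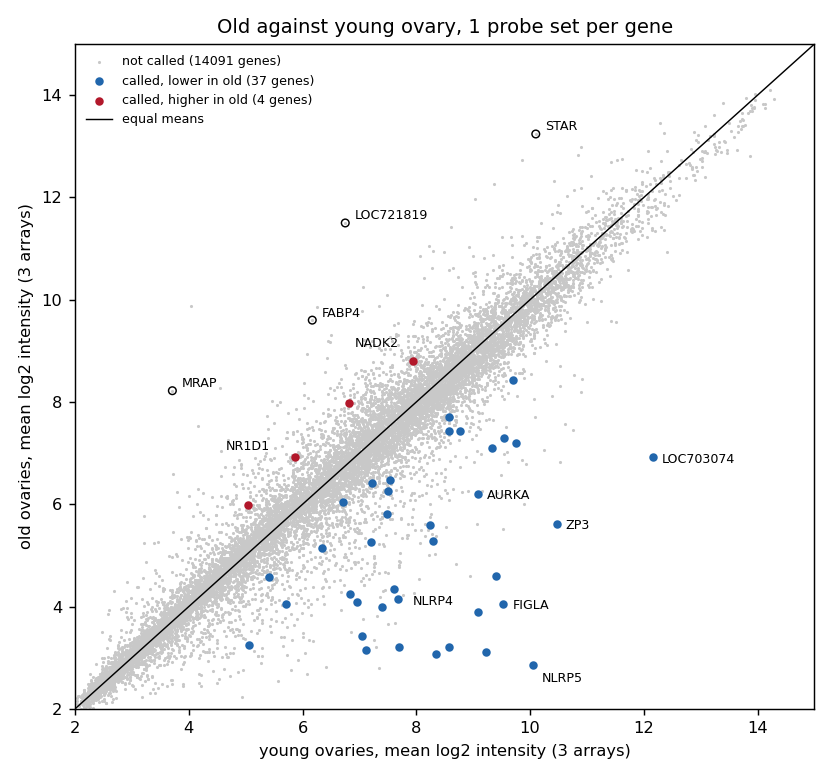
Mean log2 intensity of each of 14132 genes in 3 young ovaries (x axis) and 3 old ovaries (y axis), with the 37 called lower genes in blue, the 4 called higher genes in red and all others in grey. The called losses lie below the line of equal means, by 0.66 (CEP95) to 7.20 (NLRP5) on the log2 scale, and open circles mark STAR, LOC721819, FABP4 and MRAP, which are above it and were not called.

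The number of calls changed when single arrays were left out, and the cause was not tested. Young 1 had the lowest young reading in 29 of the 37 called lower genes, and the highest was young 3 in 18 and young 2 in 15. Without young 2, limma called 1 gene lower and 0 higher, and without young 3 it called 3 lower and 0 higher. The counts were 20 lower and 4 higher without old 1, 44 and 41 without old 2, 24 and 29 without old 3, and 54 and 2 without young 1. Without 1 of the middle-aged arrays they were 15 to 27 lower and 0 to 1 higher. SAM, the permutation method named by the study, called 186 genes lower and 0 higher.

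Maternal-effect genes, whose products the oocyte stores for the embryo, held the deepest losses. Of 15 measured genes of this list, 7 fell (NLRP4, NLRP5, NLRP11, OOEP, ZAR1, BCL2L10 and TCL1B) and none rose, against 0.262% and 0.0283% of all genes. In 14 of the 15 (93.3%, against 13.8% of all genes) all old arrays lay below all young arrays. The median log2 difference was -2.87, against -0.00 over all genes. NLRP5, also known as MATER and a member of the subcortical maternal complex, read 583, 1255 and 1630 in young 1, 2 and 3 and 5.91, 5.53 and 11.4 in old 1, 2 and 3. The groups were far apart, with the lowest young reading in young 1, and the log2 difference was -7.20 (SE 0.66, adjusted p = 0.0134 from limma). The old readings of NLRP5 lay near or below the first quartile of the arrays, which makes the size of that fold uncertain. BCL2L10, a member of the BCL2 family that is abundant in oocytes, read 350, 663 and 937 in young and 7.02, 10.9 and 8.43 in old ovaries, and it fell by 6.12 (SE 0.54, adjusted p = 0.0124 from limma). Without young 2, the adjusted p was 0.0912 for NLRP5 and 0.0857 for BCL2L10, and without young 3 it was 0.0773 and 0.0681.

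NLRP4, a further member of the NLRP family, read 318, 759 and 652 in young and 15.4, 14.3 and 14.8 in old ovaries. Its old readings were almost equal and its young readings spread about the same as those of its relatives, and it fell by 5.19 (SE 0.33, adjusted p = 0.00389 from limma). NLRP4 was the gene that kept its call whichever single array was left out, with an adjusted p of 0.0431 at most. It lost the call without young 3 and old 3 together, the arrays with the highest spike readings, an alternative chosen after the values were seen (log2 difference -5.05, adjusted p = 0.0653 from limma). NLRP11 read 99.7, 145 and 183 in young and 10, 7.5 and 9.25 in old ovaries, and it fell by 3.97 (SE 0.29, adjusted p = 0.00594 from limma; 0.0655 without young 2). Other NLRP genes were less clear. NLRP13, which read 41.5, 62.1 and 105 against 10.1, 12.7 and 11.1, and NLRP14, which read 78.1, 166 and 191 against 24.4, 22.9 and 18, did not overlap between groups but had adjusted p of 0.0642 and 0.0922 from limma. NLRP7 read 500, 536 and 491 in young and 433, 506 and 354 in old ovaries, which overlap (log2 difference -0.26, adjusted p = 0.462 from limma), although its 3 probe sets ranged from -4.89 to -0.26. NLRP7, NLRP13 and NLRP14 were chosen after their values were seen.

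OOEP, which works with NLRP5 in the subcortical maternal complex, read 86.1, 138 and 158 in young and 23, 16.9 and 12.3 in old ovaries. It fell by 2.87 (SE 0.32, adjusted p = 0.0215 from limma). ZAR1, an RNA-binding protein of the oocyte, read 376, 872 and 944 against 24.4, 25.2 and 23.2, so the lowest young ovary was far above the highest old one (log2 difference -4.80, SE 0.52, adjusted p = 0.0215 from limma). TCL1B, of the TCL1 family of AKT coactivators, read 126, 162 and 233 against 14.7, 20.1 and 13.7 and fell by 3.40 (SE 0.30, adjusted p = 0.0124 from limma). OOEP, ZAR1 and TCL1B each lost their call without young 2 and without young 3, with adjusted p up to 0.128, 0.124 and 0.0857, and ZAR1 also without middle-aged 2 or old 1.

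**Figure D2:**
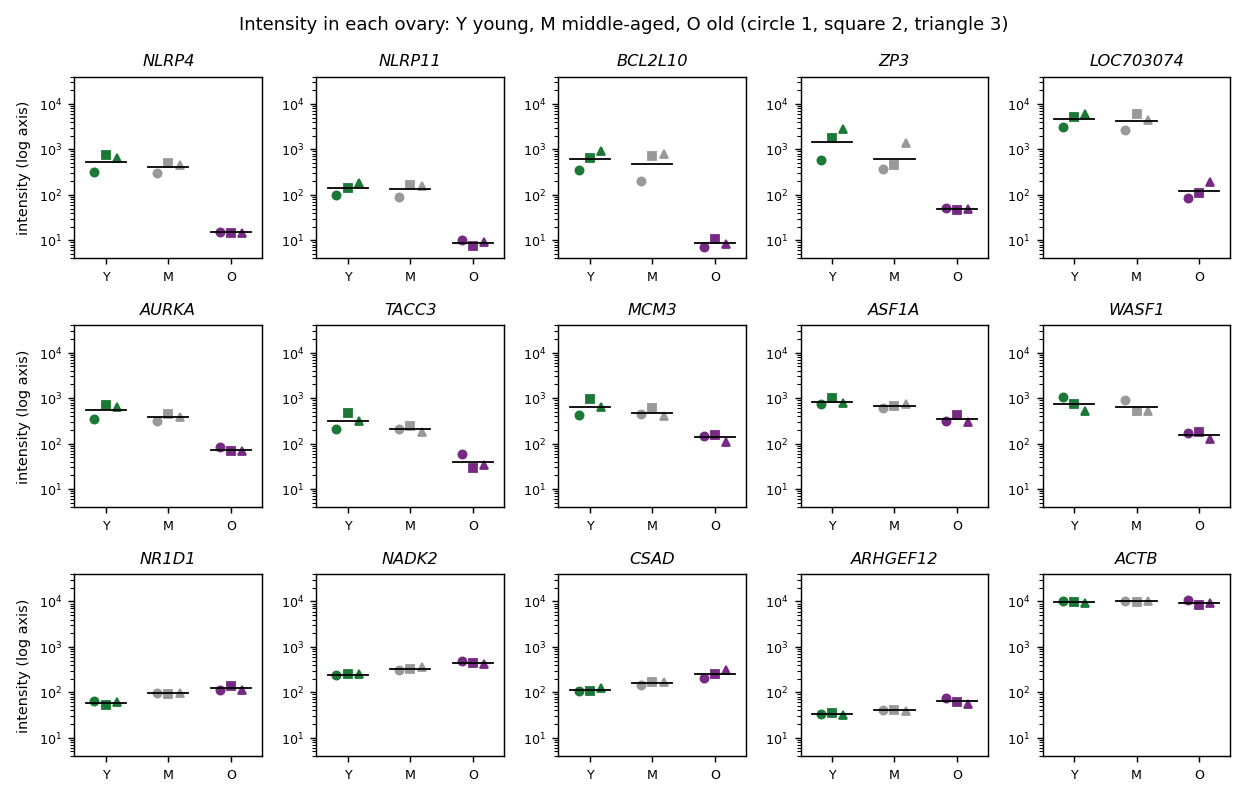
Intensity (log axis) of 14 called genes and of ACTB in each ovary of the young (Y), middle-aged (M) and old (O) groups, with replicates 1, 2 and 3 as circle, square and triangle and a line at the mean of each group. In the 10 genes of the upper rows the old ovaries lie below all others, the 4 called higher genes move by small steps with tight replicates, and ACTB is level.

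The coat and the transcription factors of the oocyte fell in part. ZP3, the zona pellucida glycoprotein known as a sperm receptor, read 582, 1742 and 2835 in young and 52.4, 46.3 and 49.4 in old ovaries. The young readings differed widely, with young 3 highest, while the old readings were close together (log2 difference -4.85, SE 0.63, adjusted p = 0.0394 from limma). The call of ZP3 was lost without young 2 or young 3, without any 1 of the old arrays and without middle-aged 1 or 2, with adjusted p up to 0.18. ZP1 read 47.7, 82.1 and 59 against 36.6, 43.9 and 40.1, lower in every old ovary but not called (adjusted p = 0.288 from limma). ZP4 went the other way, with 180, 137 and 191 in young and 391, 305 and 222 in old ovaries (log2 difference 0.83, adjusted p = 0.17 from limma). The study, in contrast, listed ZP4 among its changed reproduction genes without its mark for genes higher in old ovaries. ZP2, which the study listed as lower in old ovaries, had no probe set named by that symbol alone and was not examined. FIGLA, the factor that switches on zona pellucida genes, read 354, 1057 and 1075 in young and 14.6, 14.7 and 20.9 in old ovaries, and it fell by 5.48 (SE 0.61, adjusted p = 0.0231 from limma; 0.13 without young 2, 0.101 without young 3, 0.072 without old 1; the call was also lost without middle-aged 2). LHX8, a homeobox factor of early oocytes, read 57.9, 262 and 287 against 6.56, 6.76 and 7.45 (log2 difference -4.56, SE 0.80, adjusted p = 0.0851 from limma). SOHLH2, a further oocyte factor, read 175, 472 and 393 against 41.5, 42.7 and 19.6 (log2 difference -3.29, adjusted p = 0.117 from limma), and its other probe set differed by -0.35. Of 7 measured factors, FIGLA was called, 4 (57.1%, against 13.8% of all genes) were lower without overlap, and the median was -0.65. NOBOX, chosen after its values were seen, read 11.1, 14.8 and 16.5 against 10, 10.5 and 12.3, all near the dim end of the arrays.

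Of 17 measured genes of RNA control and of the piRNA pathway, which silences transposons, ELAVL2 fell (median -1.37). Of the 17, 10 (58.8%, against 13.8% of all genes) were lower without overlap. ELAVL2 read 189, 408 and 452 in young and 7.67, 9.92 and 7.93 in old ovaries (log2 difference -5.27, SE 0.52, adjusted p = 0.016 from limma; 0.105 without young 2, 0.0874 without young 3 and 0.0618 with the mean of its probe sets). HENMT1, which methylates piRNAs, read 79.6, 232 and 206 against 10.8, 7.42 and 9.86 (log2 difference -4.08, SE 0.63, adjusted p = 0.0642 from limma). IGF2BP3, which binds IGF2 mRNA, read 389, 1009 and 1037 against 65.9, 52.6 and 27.6 (log2 difference -4.02, SE 0.63, adjusted p = 0.0715 from limma). In this list young 1 was the lowest young array in 16 of 17 genes and young 3 the highest in 12.

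Of 24 measured genes of meiotic chromosomes and arrest, limma called 0, although SAM called 3 lower and 9 were lower with unadjusted p below 0.05. TRIP13, of the meiotic and spindle checkpoint, read 285, 540 and 232 in young and 108, 94 and 58.3 in old ovaries (log2 difference -1.97, SE 0.42, adjusted p = 0.122 from limma). MOS, the kinase that holds the egg in metaphase, read 22.5, 24 and 23.3 against 12.9, 14.7 and 12.1 (log2 difference -0.82, adjusted p = 0.116 from limma). The median of this list was -0.08, close to that of all genes. Of 11 oocyte-secreted factors and receptors limma called 0, with 1 lower at an unadjusted p under 0.05 and 0 by SAM, and the median was 0.05. GDF9, an oocyte-secreted factor of this list, had no probe set named by that symbol alone, so it was not examined. The measured members include receptors such as ACVR2A, ACVR2B and BMPR1B, and the dim GDF3 and KITLG. The median therefore says little about the secreted factors themselves. Over the germ cell lists together, 10 of 77 distinct measured genes fell, 41 were lower without overlap and 3 were higher without overlap. Over all genes the shares were 0.262% called lower, 13.8% lower without overlap and 7.78% higher without overlap.

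Of the 37 genes that fell, 22 stood in none of the lists. LOC703074, an uncharacterised gene, was the brightest of the large losses, with 3074, 5198 and 6009 in young and 84.5, 112 and 188 in old ovaries. Its old readings were still well above the first quartile, and it fell by 5.24 (SE 0.40, adjusted p = 0.00682 from limma; 0.0742 without young 2), while its other probe set differed by -7.75. LOC712263, also uncharacterised, read 203, 472 and 583 against 8.16, 8.11 and 11.6 (log2 difference -5.38, adjusted p = 0.0215 from limma). ERFE encodes erythroferrone, a hormone of red cell precursors that lowers hepcidin. It read 115, 262 and 290 in young and 9.87, 8.65 and 9.05 in old ovaries (log2 difference -4.49, SE 0.43, adjusted p = 0.0142 from limma). TAFA2, a small secreted protein, read 103, 205 and 111 against 7.64, 13.5 and 11.9 (log2 difference -3.63, adjusted p = 0.0347 from limma). LOC712263 and ERFE lost their call without young 2 or young 3, LOC712263 also without middle-aged 2 or old 1, and TAFA2 without any young array, middle-aged 1, old 1 or old 3, with adjusted p up to 0.151 over these 3 genes.

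Other called genes fell by smaller steps. WASF1, which drives branched actin, read 1045, 746 and 531 in young and 171, 180 and 124 in old ovaries, and unlike most called genes it was highest in young 1 (log2 difference -2.25, SE 0.31, adjusted p = 0.0487 from limma). CAMSAP1, which binds the minus ends of microtubules, read 451, 455 and 406 against 167, 175 and 175, with little spread in either group (log2 difference -1.34, SE 0.16, adjusted p = 0.0302 from limma). Its 6 probe sets ranged from -1.34 to 0.03, and with their mean the difference was -0.57 and not called (adjusted p = 0.0876 from limma). RPIA, an enzyme of the pentose phosphate pathway, read 338, 399 and 411 against 198, 228 and 198 (log2 difference -0.88, SE 0.11, adjusted p = 0.0422 from limma). WASF1 lost its call without any 1 of the young or old arrays, CAMSAP1 without any young array, old 1 or old 3, and RPIA without young 2, young 3, old 1 or old 3, and each lost it without 1 or more of the middle-aged arrays. The adjusted p of these 3 genes was 0.191 at most. The other called lower genes were ACTL8, TMPRSS3, CENPU, CDCA2, TESC, TMEFF1, ZFP69B, EFNB3, NELL1, LDLRAD3, ZNF226, ZNF829, RBM33, DNAAF2 and CEP95, with log2 differences from -3.53 to -0.66. For 7 called genes the probe sets of the gene differed in sign.

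Genes of cell division were lower in old ovaries as a group, led by 2 called genes. Of 19 measured genes of the mitotic cycle, AURKA and TACC3 fell and all 19 had a negative difference, with a median of -2.13. Of the 19, 15 (78.9%, against 13.8% of all genes) were lower without overlap. An unadjusted p under 0.05 was reached by 18, against 1692 lower among all 14132 genes. AURKA, a kinase of the spindle poles in mitosis and meiosis, read 348, 710 and 640 in young and 85.2, 68.6 and 68 in old ovaries (log2 difference -2.88, SE 0.27, adjusted p = 0.0142 from limma; 0.0857 without young 2 and 0.0811 without young 3). TACC3, which AURKA phosphorylates to stabilise spindle microtubules, read 210, 469 and 318 against 59.6, 29.5 and 33.7 (log2 difference -3.01, SE 0.34, adjusted p = 0.0231 from limma; 0.105 without young 2 and 0.101 without young 3, and lost without middle-aged 1 or 2). The lowest young reading of either gene was above its highest old reading.

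In this list the readings separated by monkey as well as by age. Young 2 was the highest young array in all 19 genes and old 1 the highest old array in 18. PTTG1, or securin, read 1731, 2745 and 1526 in young and 520, 239 and 343 in old ovaries (log2 difference -2.47, SE 0.42, adjusted p = 0.0786 from limma). MKI67, the Ki-67 proliferation marker, read 119, 432 and 68.1 against 68.4, 16.4 and 18.5, so that young 3 and old 1 were level (log2 difference -2.47, adjusted p = 0.329 from limma). TOP2A, the topoisomerase of dividing cells, read 857, 2127 and 269 against 306, 129 and 37.8, again with old 1 above young 3. MKI67 and TOP2A were chosen after their values were seen.

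Replication and chromatin genes showed smaller differences of the same sign. Of 22 measured replication genes, MCM3 fell and 15 (68.2%, against 13.8% of all genes) were lower without overlap (median -0.92). MCM3, a subunit of the replicative helicase, read 431, 955 and 651 in young and 150, 154 and 111 in old ovaries (log2 difference -2.24, SE 0.29, adjusted p = 0.0394 from limma). GINS2, a partner of that helicase, read 390, 902 and 1178 against 75.2, 82.5 and 60.8 (log2 difference -3.37, SE 0.48, adjusted p = 0.0549 from limma). Not all members followed, as GINS3 read 70.3, 89.8 and 56.6 against 88.6, 89.1 and 52.1 (adjusted p = 0.949 from limma). Of 20 genes of DNA methylation and chromatin, ASF1A fell and 14 (70%, against 13.8% of all genes) were lower without overlap (median -0.99). ASF1A, a histone chaperone, read 759, 997 and 765 against 312, 427 and 300 (log2 difference -1.29, SE 0.18, adjusted p = 0.0489 from limma), and its 4 probe sets ranged from -1.29 to 0.05, with a mean of -0.55 that was not called (adjusted p = 0.103). UHRF1, which guides DNMT1 to replicated DNA, read 252, 614 and 459 against 53.1, 36 and 12.1 (log2 difference -3.86, SE 0.59, adjusted p = 0.0642 from limma). DNMT3A, a de novo DNA methyltransferase, read 668, 753 and 571 against 291, 350 and 284 (log2 difference -1.10, adjusted p = 0.0858 from limma). MCM3 lost its call without young 2 or 3, old 1 or 3 or any middle-aged array, and ASF1A without any array other than old 2, with adjusted p up to 0.18.

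**Figure D3:**
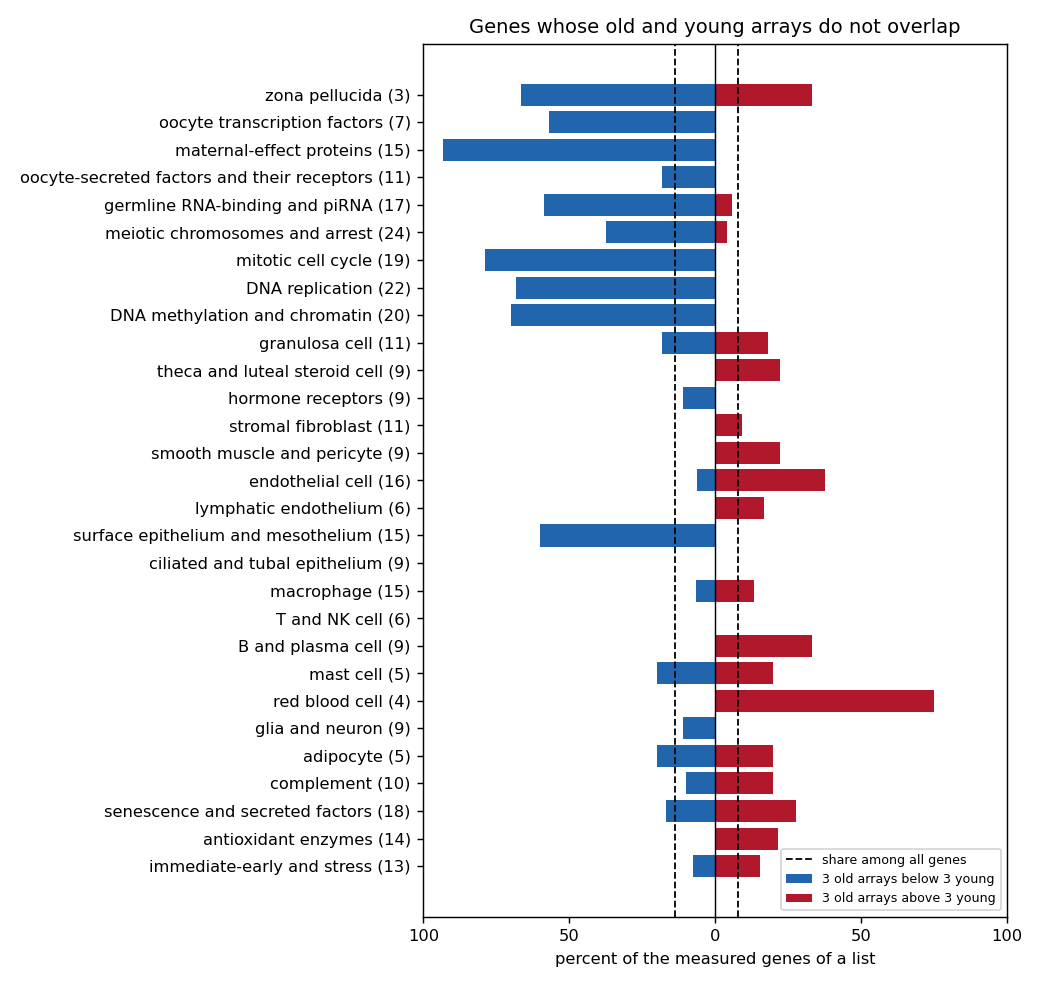
Percent of the measured genes of each list (number in brackets) whose 3 old arrays lie all below (blue, to the left) or all above (red, to the right) the 3 young arrays, with dashed lines at the 13.8% and 7.78% of all genes. The longest blue bar is that of the maternal-effect genes (93.3%), followed by mitotic cycle genes (78.9%).

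Granulosa cell genes were not called by limma, and members read both lower and higher in old ovaries. AMH, the anti-Müllerian hormone of small growing follicles, read 625, 3292 and 412 in young and 56.4, 72.3 and 65 in old ovaries. Every old ovary was far below every young one, yet the young ovaries differed so much, with young 2 highest, that the difference was not called by limma (log2 difference -3.88, SE 0.97, adjusted p = 0.16), although SAM called it. HSD17B1, which makes estradiol, had the same order, with 1372, 3972 and 322 against 127, 144 and 133 (log2 difference -3.17, SE 1.11, adjusted p = 0.279 from limma). The inhibin subunit genes were higher in old ovaries: INHA read 317, 510 and 189 against 6350, 2375 and 522 (log2 difference 2.67, SE 0.89, adjusted p = 0.259 from limma), and INHBA read 295, 157 and 159 against 2343, 326 and 494 (log2 difference 1.89, adjusted p = 0.278 from limma). Both were highest in old 1. Of 11 granulosa genes limma called 0 and SAM 1 lower, with 2 higher and 2 lower at an unadjusted p under 0.05, and the median was -0.56.

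Genes of steroid-making cells read high in old 1 and old 2. STAR, the carrier that brings cholesterol into mitochondria, read 2090, 975 and 646 in young and 21679, 12233 and 3448 in old ovaries. All old readings were above all young ones, but old 1 was several times old 3 (log2 difference 3.15, SE 0.81, adjusted p = 0.169 from limma). MRAP, the accessory protein that takes the ACTH receptor to the cell surface, read 14.6, 15 and 10.3 against 1144, 296 and 79.1 (log2 difference 4.51, SE 0.88, adjusted p = 0.107 from limma), and its other probe set differed by 0.46. Without old 3, MRAP was called (log2 difference 5.47, adjusted p = 0.0408 from limma). Old 3 held its lowest old reading, so a larger difference follows from leaving that array out. FDX1, which carries electrons to the steroid enzymes, read 2804, 901 and 1015 against 12400, 6392 and 1727, where old 3 was below young 1 (log2 difference 1.91, adjusted p = 0.321 from limma). CYP17A1, the androgen-making enzyme of theca cells, had another order, with 1250, 621 and 184 against 337, 3053 and 2105 (log2 difference 1.31, SE 1.08, adjusted p = 0.639 from limma). Of 9 genes of this list limma and SAM called 0, with 3 higher at an unadjusted p under 0.05, and the median was 1.24. Young 3 was the lowest young array in 7 of the 9, and the spread between monkeys of 1 age was of the order of the difference between ages.

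**Figure D4:**
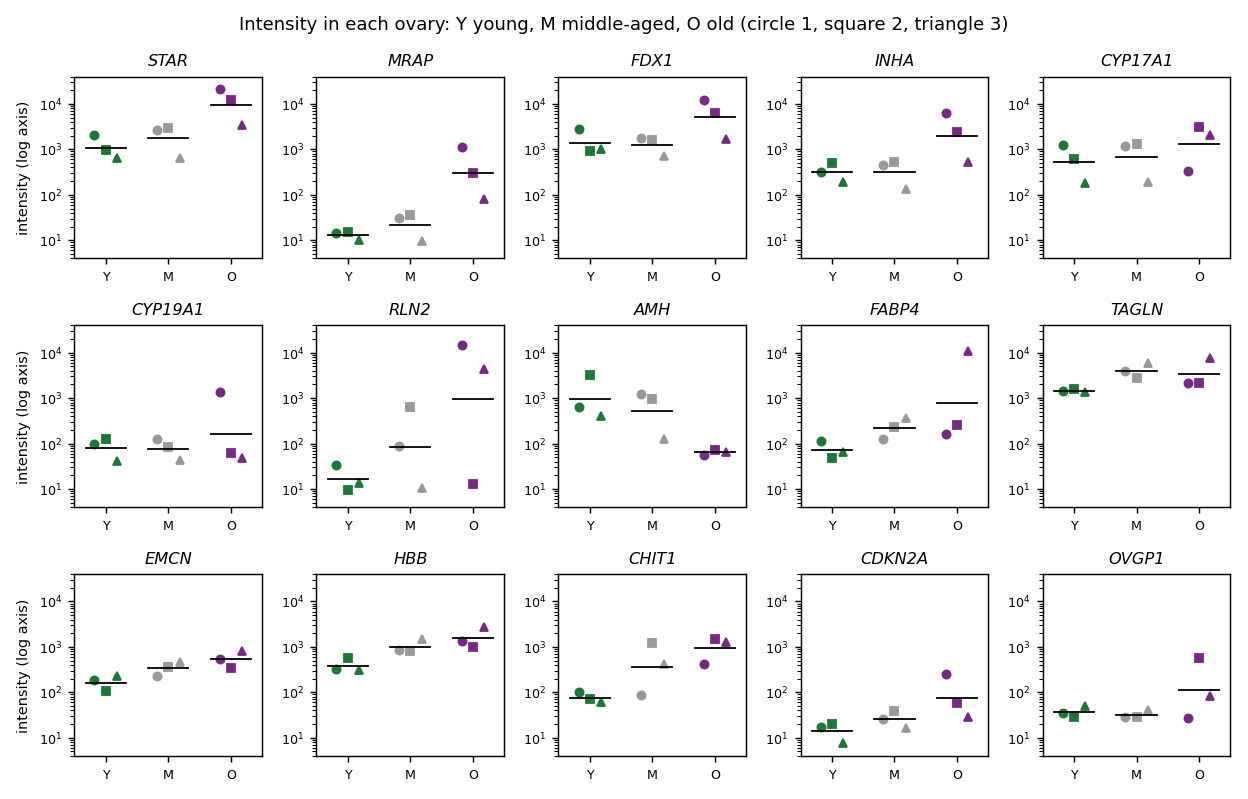
Intensity (log axis) of 15 genes that differed between monkeys of the old group or were not called, in each ovary of the young (Y), middle-aged (M) and old (O) groups, with replicates 1, 2 and 3 as circle, square and triangle and a line at the mean of each group. STAR, MRAP, FDX1 and INHA are highest in old 1 and lowest in old 3, FABP4 and TAGLN stand out in old 3, and RLN2 and OVGP1 show a single low or high old ovary.

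The 4 genes that rose moved by small steps between tight groups. NR1D1, a repressor in the circadian clock also named REV-ERB alpha, read 62.8, 52.1 and 60.1 in young and 114, 140 and 112 in old ovaries (log2 difference 1.06, SE 0.13, adjusted p = 0.0292 from limma). NADK2, the mitochondrial NAD kinase, read 237, 254 and 247 against 483, 444 and 413 (log2 difference 0.86, SE 0.11, adjusted p = 0.0372 from limma). CSAD, an enzyme of taurine synthesis, read 108, 105 and 125 against 204, 252 and 304 (log2 difference 1.15, SE 0.16, adjusted p = 0.0497 from limma). ARHGEF12, an activator of RhoA, read 32.7, 34.5 and 31.5 against 74.5, 62.5 and 55.1 (log2 difference 0.95, SE 0.13, adjusted p = 0.0426 from limma). None of these 4 genes overlapped between young and old ovaries. The probe sets of ARHGEF12 ranged from -0.20 to 0.95 and those of NR1D1 from 0.09 to 1.06. With the mean of all probe sets of a gene, the log2 difference was 0.26 for ARHGEF12 (adjusted p = 0.37 from limma), 0.57 for NR1D1 (0.192) and 0.77 for NADK2 (0.168), so these 3 calls were lost. Without young 2 or young 3 each lost its call, with adjusted p from 0.101 to 0.205, and SAM called 0 of them. Each also lost it without any 1 of the middle-aged arrays and without old 1 (0.0607 for NR1D1, 0.0799 for NADK2, 0.0748 for ARHGEF12) or, for CSAD, old 2 (0.0653) or old 3 (0.0632). The calls of ARHGEF12, NADK2 and CSAD were also lost without young 1, and those of ARHGEF12 (0.0567) and NADK2 (0.0538) without old 2. The study's own SAM list gave ARHGEF12, NADK2 (as NADKD1) and CSAD (as LOC701290) as higher.

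The 12 largest gains without overlap were not called, and most were uneven across the old monkeys. Old 1 was highest in 8 of the 12 and old 3 lowest in 8. LOC721819, which the study lists as similar to cofilin-1, read 292, 81 and 53 in young and 6830, 4103 and 869 in old ovaries (log2 difference 4.75, SE 1.06, adjusted p = 0.132 from limma). CHIT1, the chitinase of macrophages, read 100, 71.7 and 60.9 against 424, 1483 and 1289 (log2 difference 3.62, SE 0.87, adjusted p = 0.153 from limma). CCN5, a matricellular protein, read 135, 57.7 and 95.6 against 997, 518 and 497 and was the most even of these (log2 difference 2.81, SE 0.44, adjusted p = 0.0679 from limma). ENPP2, or autotaxin, read 532, 236 and 475 against 14581, 703 and 2060, with old 1 far above the other old ovaries (log2 difference 2.82, adjusted p = 0.271 from limma). DCLRE1C, ATXN7, MGARP, HP, FABP4 and PON3 were the others beside STAR and MRAP. DCLRE1C, a nuclease of DNA end joining, read 179, 92.1 and 148 against 3111, 1685 and 343, but its 3 probe sets ranged from -0.31 to 3.18. The study's SAM list gave LOC721819, CHIT1, MRAP, MGARP and CCN5 (as LOC717872) as higher in old than in young ovaries. Its PCR found MRAP significantly higher, while LOC717872 had the same trend without significance.

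Markers of vessels and muscle were mostly higher in old ovaries, with different monkeys leading. Of 16 endothelial genes, 14 had a positive difference (median 1.16), though limma and SAM called 0 higher. Of the 16, 6 (37.5%, against 7.78% of all genes) were higher without overlap. A further count, 10 higher at an unadjusted p under 0.05, stands against 963 of all 14132 genes. EMCN, endomucin of capillaries and veins, read 182, 106 and 224 in young and 546, 347 and 795 in old ovaries (log2 difference 1.71, SE 0.39, adjusted p = 0.141 from limma). ENG, or endoglin, read 507, 462 and 409 against 727, 974 and 974 (log2 difference 0.95, SE 0.17, adjusted p = 0.0851 from limma), while its other probe set differed by 0.11. Old 2 was the lowest old array in 14 of the 16 genes. PECAM1, the endothelial adhesion molecule CD31, chosen after its values were seen, read 390, 354 and 466 against 3012, 414 and 3047, so old 2 lay within the young range (adjusted p = 0.293 from limma). THBD, the thrombin receptor of endothelium, went against the list, with 319, 414 and 425 in young and 174, 176 and 167 in old ovaries (log2 difference -1.15, SE 0.13, adjusted p = 0.0277 from limma). Its 4 probe sets ranged from -1.15 to 1.51, their mean differed by 0.19 (adjusted p = 0.832 from limma), and the call was lost without young 2, young 3, middle-aged 2, old 1 or old 3 (adjusted p up to 0.146). The study's array results also gave THBD as lower, but its PCR had the opposite trend, higher in old ovaries, without significance.

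Without old 2, limma called 41 of all 14132 genes higher in old than in young ovaries, and 5 of the 16 endothelial genes were among them: PECAM1, CDH5, TIE1, EGFL7 and ICAM2. CDH5, the cadherin of endothelial junctions, read 187, 153 and 189 in young and 1151, 195 and 651 in old ovaries, and its log2 difference went from 1.59 (adjusted p = 0.271) to 2.30 (adjusted p = 0.0259 from limma) without old 2. NOS3, the endothelial nitric oxide synthase, read 29.9, 27.1 and 24.5 against 69, 31.7 and 54.4, and its adjusted p went from 0.219 to 0.0429. JCHAIN, the joining chain of secreted IgA and IgM, read 27.3, 16.4 and 38 against 303, 39 and 296 and went from 0.202 to 0.0161. These genes were called without old 2 but not with all arrays. That old 2 read lower than old 1 and old 3 in them follows from this choice. CDH5, EGFL7 and NOS3 were chosen after their values were seen.

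Without old 3, limma called 29 genes higher, and 5 of them are given here. EBP, an isomerase of cholesterol synthesis, read 246, 268 and 290 in young and 3357, 3122 and 609 in old ovaries, and its log2 difference went from 2.80 (adjusted p = 0.117) to 3.60 (adjusted p = 0.00481 from limma) without old 3. IDI1, which acts early in isoprenoid synthesis, read 60.3, 72.2 and 64.1 against 681, 516 and 103 (adjusted p = 0.18 with all arrays and 0.0125 without old 3, from limma). CYP51A1, the lanosterol demethylase, read 279, 165 and 185 against 1225, 1074 and 311 (adjusted p = 0.175 and 0.0244). STARD4, a cholesterol transporter of the cytosol, read 94.2, 95.8 and 144 against 883, 567 and 135, with old 3 within the young range (adjusted p = 0.23 and 0.0178). MT2A, a metallothionein, read 2511, 1263 and 2163 against 10528, 9932 and 5006 (adjusted p = 0.0729 and 0.0304). These 5 genes were chosen after their values were seen, and no list of sterol genes was set for this comparison. They were called without old 3 but not with all arrays, so a lower reading in old 3 follows from this choice.

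**Figure D5:**
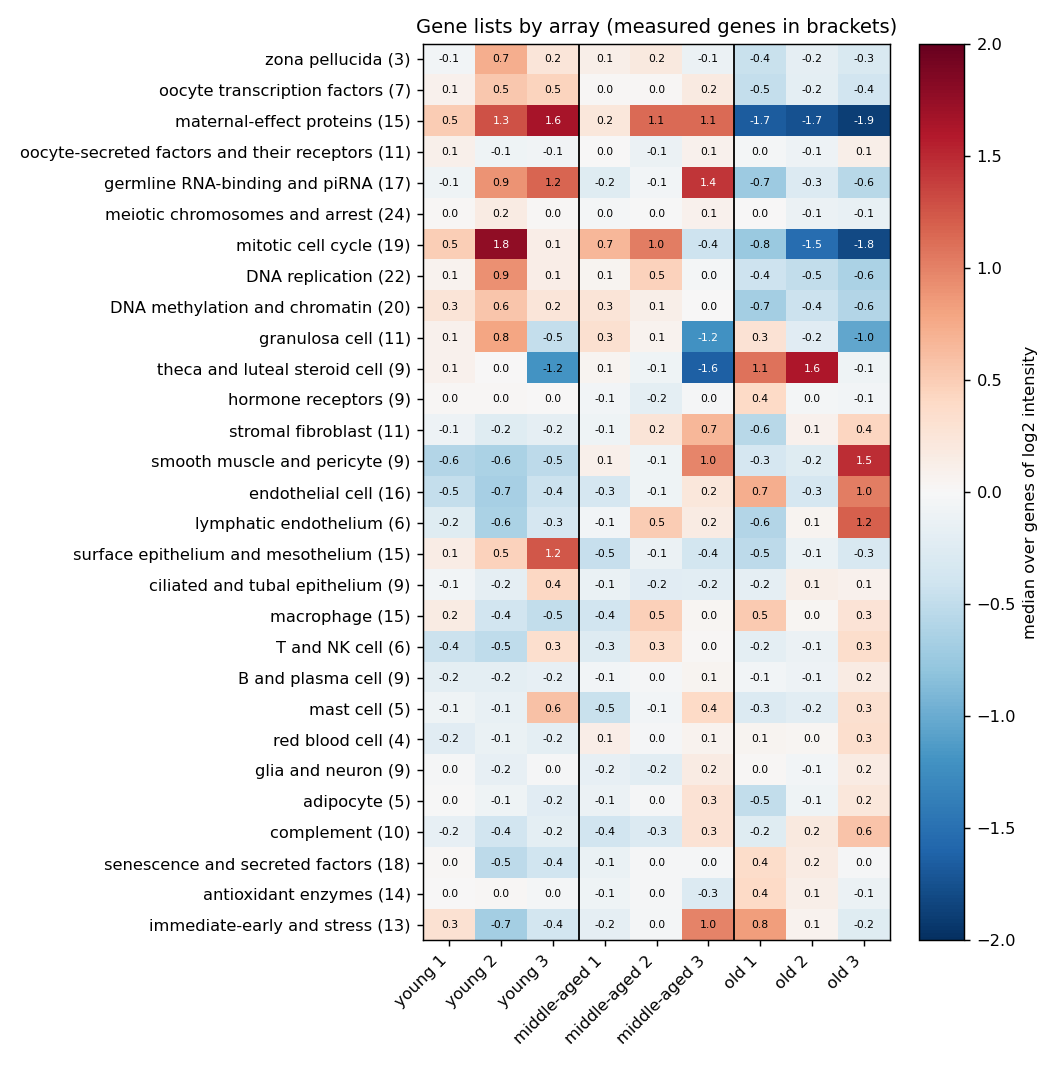
Median over the measured genes of each list (number in brackets) of the deviation of log2 intensity from the mean of the 9 arrays for that gene, shown per array, with lines between the age groups. Maternal-effect genes lie at -1.67 to -1.89 in the 3 old arrays, mitotic cycle genes peak in young 2 (1.77), and smooth muscle genes stand out in old 3 (1.47).

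All 9 smooth muscle and pericyte genes had a positive difference and were highest in old 3 among the old arrays. MYL9, a myosin light chain, read 2399, 2150 and 1942 in young and 5143, 4502 and 6891 in old ovaries (log2 difference 1.33, SE 0.21, adjusted p = 0.0735 from limma). TAGLN, or transgelin, read 1437, 1621 and 1367 against 2206, 2180 and 7729 (log2 difference 1.18, SE 0.48, adjusted p = 0.342 from limma). Limma and SAM called 0 of the 9, with 3 higher at an unadjusted p under 0.05 (median 0.83). FABP4, the fatty acid binding protein of fat cells and small vessels, read 115, 49.3 and 65.9 against 165, 255 and 11079 (adjusted p = 0.339 from limma), whereas ADIPOQ, made by fat cells, read 456, 511 and 494 against 297, 435 and 422. Of 11 stromal fibroblast genes limma and SAM called 0, and 0 had an unadjusted p under 0.05 (median 0.25). DCN, or decorin, read 6477, 6770 and 9764 against 6435, 10082 and 14749, and COL1A2, a chain of type I collagen, read 7980, 7126 and 5737 against 5328, 6900 and 4032, both with overlap.

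Most genes of the epithelium list read lower in old ovaries. Of 15 measured genes of ovarian surface epithelium and mesothelium, 14 had a negative difference (median -0.97), though limma called 0 and SAM 4 lower. Of the 15, 9 (60%, against 13.8% of all genes) were lower without overlap. At an unadjusted p under 0.05 there were 8 lower, against 1692 of all 14132 genes. DSP, the desmosomal plaque protein desmoplakin, read 1155, 2371 and 1426 in young and 138, 266 and 186 in old ovaries (log2 difference -3.05, SE 0.50, adjusted p = 0.074 from limma). KRT8, a keratin of simple epithelia, read 355, 120 and 292 against 35.7, 43 and 47.7 (log2 difference -2.47, SE 0.50, adjusted p = 0.111 from limma). MSLN, or mesothelin, read 255, 338 and 669 against 91.6, 126 and 130 (log2 difference -1.76, adjusted p = 0.161 from limma). KRT18, the usual partner of KRT8, did not follow, with 230, 178 and 306 against 308, 274 and 980 (log2 difference 0.91, adjusted p = 0.479 from limma). Young 3 was the highest young array in 8 of the 15 genes.

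Genes of senescence and of antioxidant defence read unevenly across the old monkeys. Of 18 genes of senescence and its secreted factors, limma and SAM called 0, with 6 higher and 1 lower at an unadjusted p under 0.05 (median 0.64), and 5 (27.8%, against 7.78% of all genes) were higher and 3 (16.7%, against 13.8%) lower without overlap. CDKN2A, the cell cycle inhibitor p16, read 17.4, 20 and 7.58 in young and 247, 59.3 and 29.1 in old ovaries (log2 difference 2.45, SE 0.74, adjusted p = 0.223 from limma), and its 3 probe sets ranged from 0.00 to 2.45. IGFBP4, which binds insulin-like growth factors, read 631, 550 and 608 against 1042, 1708 and 1344 (log2 difference 1.17, SE 0.20, adjusted p = 0.0851 from limma). MMP9, a gelatinase, read 43.2, 47.2 and 50.1 against 161, 364 and 255 (log2 difference 2.40, adjusted p = 0.276 from limma). The study's SAM list gave IGFBP4 and MMP9 as higher in old than in young ovaries. By its PCR the rise was significant for MMP9 but not for IGFBP4. IL6 read 6.09, 5.52 and 6.74 against 9.99, 10.5 and 10.2 (log2 difference 0.75, SE 0.11, adjusted p = 0.0616 from limma), all near the first quartile of the arrays. LMNB1, a lamin known to drop in senescent cells, read 484, 1026 and 308 against 188, 119 and 103 (log2 difference -2.02, adjusted p = 0.239 from limma). Of 14 antioxidant enzymes limma and SAM called 0, with 3 higher at an unadjusted p under 0.05 and a median of 0.17. PRDX3, the mitochondrial peroxiredoxin, read 2676, 2797 and 2656 against 4121, 5926 and 2891 (log2 difference 0.61, adjusted p = 0.339 from limma).

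Immune markers held no called gene, and red blood cell genes read higher in old ovaries without a call. Of 15 macrophage genes limma and SAM called 0, with 5 higher and 1 lower at an unadjusted p under 0.05 (median 0.43). CSF1R, the receptor that macrophages need to survive, read 331, 398 and 322 in young and 183, 196 and 255 in old ovaries (log2 difference -0.74, adjusted p = 0.19 from limma), whereas VSIG4, a complement receptor of resident macrophages, read 87.4, 42.5 and 49.8 against 114, 112 and 99.1 (log2 difference 0.93, adjusted p = 0.221 from limma). MASP1, a protease of the lectin pathway of complement, read 60.4, 35.3 and 54.4 against 256, 156 and 409 (log2 difference 2.38, SE 0.50, adjusted p = 0.12 from limma). Medians of T and NK cell genes (0.17), B and plasma cell genes (0.19), complement genes (0.36) and immediate-early genes (0.38) were positive, and limma and SAM called 0 in each, with 0, 3, 3 and 3 higher and 0, 0, 0 and 1 lower at an unadjusted p under 0.05. The median of complement genes was -0.09 without old 3, and that of immediate-early genes was -0.04 without old 1. All 4 measured red blood cell genes had a positive difference, 3 were higher without overlap (7.78% of all genes) and 2 had an unadjusted p under 0.05, though limma and SAM called 0 (median 0.24). These 4 genes summed to 351 to 613 in young and 1027 to 2797 in old ovaries, with HBB carrying most of the sum. Their part in the other differences was not tested.

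In most genes the 3 old ovaries differed more among themselves than the 3 young ones did, which was not tested. The median SD between replicates was 0.251 on the log2 scale in the old and 0.193 in the young group, and 61% of genes had the larger SD in the old group. Among the 40 genes with the largest SD between old arrays, old 1 was highest in 24, old 3 in 13 and old 2 in 3. The old range enclosed the young range in 20, but these genes were picked for a wide old range. RLN2, the hormone relaxin made by the corpus luteum, read 34.3, 9.4 and 13.4 in young and 14488, 12.8 and 4441 in old ovaries. AREG, an EGF-like factor of ovulation, read 113, 7.64 and 7.85 against 2677, 8.39 and 7.32, and CYP19A1, the aromatase that makes estrogen, read 97.8, 128 and 42.2 against 1389, 60.9 and 48.8. OVGP1, the oviductal glycoprotein, stood out in old 2, with 27.5, 578 and 83.8 in the old ovaries. RLN2 and AREG were chosen after their values were seen, as was CYP19A1, and none of these readings makes a difference between the age groups.

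The middle-aged ovaries sat nearer to the young ones in the genes that fell. For all 37 called lower genes every middle-aged array was above every old array, and the middle-aged mean was closer to the young than to the old mean in all 37. The middle-aged mean was at or above the young mean in 2 of them. For the 4 genes that rose, every middle-aged array was below every old array, and the middle-aged mean was closer to the young mean in 2. The calls used the spread of all 9 arrays, so the middle-aged readings are not wholly independent of them. The called genes were also picked for old readings far from the young ones relative to that spread. How often middle-aged and old arrays do not overlap over all genes was not counted. These counts therefore describe the called genes only and have no background to be read against.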

How the data were processed

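The authors deposited linear intensities, 1 value for each probe set, for 9 one-colour Affymetrix rhesus arrays. Per the labels these came from RMA (version not given in the sources used here), whereas the study's methods describe LuxScan with LOWESS and dye reversal, so the labels were followed. Intensities were taken to log2 without a pseudocount or further normalization. Of 52865 probe sets, 99 controls were left out. The array annotation gave 1 symbol to 24956, several to 361 and none to 27449, and probe sets without exactly 1 symbol were tested but not named. Precision is limited by how few arrays there are, with 1 monkey for each.

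Tests used limma 3.58.1 in R 4.3.3, with 1 mean per age group over 9 arrays, Benjamini-Hochberg adjustment over all 52766 probe sets, and a fold of at least 1.5. SAM was run on the 6 arrays with 20 labelings and a q limit of 5 percent. Both were tested on simulated data. Named genes are all called genes, the 12 largest gains and 12 largest losses without overlap (unadjusted p under 0.05, higher mean above the median), from each list at most 4 members on the side of the list median and 2 on the opposite side (smallest p first), and a few fixed genes. The 29 gene lists hold 468 genes, of which 338 had a probe set with exactly 1 symbol and are called measured. The comparison, lists and rules were chosen with earlier results of these data known. The alternatives were a fit of the 6 arrays alone, centring, quantile normalization, brighter probe sets alone, trend and robust variances, array weights, no fold minimum, the mean of a gene's probe sets, SAM, a replicate block and leaving out each array.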

Additional observations from a re-analysis of the deposited data

How the results depend on the processing

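The direction of every called gene was kept under every alternative run, except THBD with the mean of its probe sets (0.19), but the number of calls was not stable. Probe sets called higher (14) were 2 with the 6 arrays alone, 9 with quantile normalization, 9 with trend and robust variances, 1 with SAM and 0 to 111 without 1 array. Probe sets called lower (68) were 25 with the 6 arrays alone, 367 with SAM and 4 to 98 without 1 array. Genes called higher (4) were 0 with the 6 arrays alone, 7 with the brighter probe sets, 1 with trend and robust variances, 0 with SAM, 1 with the mean of all probe sets and 0 to 41 without 1 array. Genes called lower (37) were 13 with the 6 arrays alone, 186 with SAM and 1 to 54 without 1 array. Without young 3 and old 3 together, chosen after seeing the data, there were 8 probe sets higher and 1 lower, and 2 genes higher and 0 lower. Of the 41 called genes, 12 were kept with the 6 arrays alone, 34 with centring, 33 with quantile normalization, 37 with SAM and 0 without young 3 and old 3. The cause of these shifts was not tested.

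Same-numbered old and young arrays deviated from their group means with correlations of 0.095, 0.043 and 0.252, and the numbers were not taken to pair the monkeys. For number 3 the correlation with the middle-aged array was 0.355 for old and 0.41 for young. Array 3 had the lowest median deviation of each age group for steroid cell genes (-1.19 young, -1.64 middle-aged, -0.08 old) and mitotic genes. It had the highest for smooth muscle (-0.52, 0.97 and 1.47) and endothelial genes. Patterns given above for old 3 were thus partly shared by young 3 and middle-aged 3, and the cause was not tested. A replicate block gave 52 probe sets higher and 177 lower, and 23 genes higher and 91 lower, with 37 of the 41 called genes kept. Centring moved the median of all genes by 0.03 on the log2 scale and quantile normalization by 0.01. Of the 29 list medians, 10 changed sign under some alternative, among them complement (-0.09 without old 3) and adipocyte (0.95 with the mean of all probe sets). Old means of 7 called lower genes lay below the highest first quartile of an array, where no detection call sets a floor.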
